A study of Arabidopsis thaliana with 10 samples.

Results

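The SAUR (small auxin-up RNA) genes of Arabidopsis thaliana were followed across 5 groups of dark-grown hypocotyls that differed in gibberellin supply, brassinosteroid supply and the transcription factor BZR1. The family members were taken by locus identifier from a list of 54 SAUR loci, and all 54 were present among the 33518 genes measured. The family below means these 54 members, and SAUR genes outside the list were not examined. By position in the locus numbering, 37 members lay in 9 clusters of neighbouring genes and 17 were dispersed. The members AT1G29490 and AT1G29510 carry the same symbol in the RefSeq gene table and are called here by locus.

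Each group had 2 sequencing libraries made from total RNA of hypocotyls, 10 libraries in all, and every group was kept dark for 4.5 days with 1 µM PAC, or paclobutrazol, which blocks gibberellin synthesis. Wild-type Col-0 was grown without PPZ or with 2 µM PPZ (propiconazole, which blocks brassinosteroid synthesis), and the plates of each medium then received either mock solution or 10 µM GA3, an active gibberellin, for 12 hours. The fifth group was bzr1-1D, a dominant mutant with a stabilized form of BZR1, the transcription factor that acts at the end of brassinosteroid signalling; it was grown on PAC with 2 µM PPZ and given mock. Gibberellin synthesis was therefore blocked in every group, including the controls, and there was no wild type on plain medium and no bzr1-1D without PPZ. The labels give no number of seedlings per library and do not state whether the 2 libraries had separate cultures behind them, so p-values cover only how the libraries of a group varied, and that variation may be technical.

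SAUR genes encode small proteins, and many of their transcripts accumulate within minutes of auxin treatment and are short-lived. In the acid growth pathway, SAUR proteins bind and inhibit PP2C.D phosphatases, which otherwise remove the activating phosphate from plasma membrane H+-ATPases; the pumps then acidify the cell wall, and the cell can expand. In the hypocotyl, the SAUR19 and SAUR63 subfamilies are known to promote elongation, and auxin, brassinosteroids and gibberellins are all known to act on SAUR transcripts.

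The deposited tables give the mean of the 2 libraries of each group in normalized reads, that is, reads divided by a size factor for sequencing depth. From these means the whole reads of both libraries were recovered for all 54 members. The libraries held 7830371 to 15936871 recovered reads, and within a group they are called the deeper and the shallower library, because nothing ties them to the labelled sample or its repeat. Library values below are normalized reads, first of the deeper and then of the shallower library. Libraries of a group differed in this family: 42 members were higher in the shallower wild-type PAC library and 10 in the deeper, 13 were higher in the shallower and 40 in the deeper library of the PAC and GA3 group, and 42 against 10 in the bzr1-1D group. The same numbers were 34 and 18 in wild type on PAC and PPZ, and 25 and 27 with GA3 on that medium. No such count over all genes is given here. Reads aligned to more than 1 place were counted apart, at 8.61 to 10.7% of each group's total, so levels of near-identical neighbours within clusters are uncertain. No defining hypocotyl marker was checked. Among markers of other tissues, 5 root hair genes summed to 51.4 normalized reads on PAC, 98.5 with GA3, 269 on PAC and PPZ, 296 with GA3 on PPZ and 76.0 in bzr1-1D in the authors' deposited tables. The sums of 9 seed storage and oil body genes there were 20042, 3481, 37897, 8331 and 26009, and none of the 14 marker genes was at 0 in any group. The part of these tissues in the results below was not tested.

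**Figure D1:**
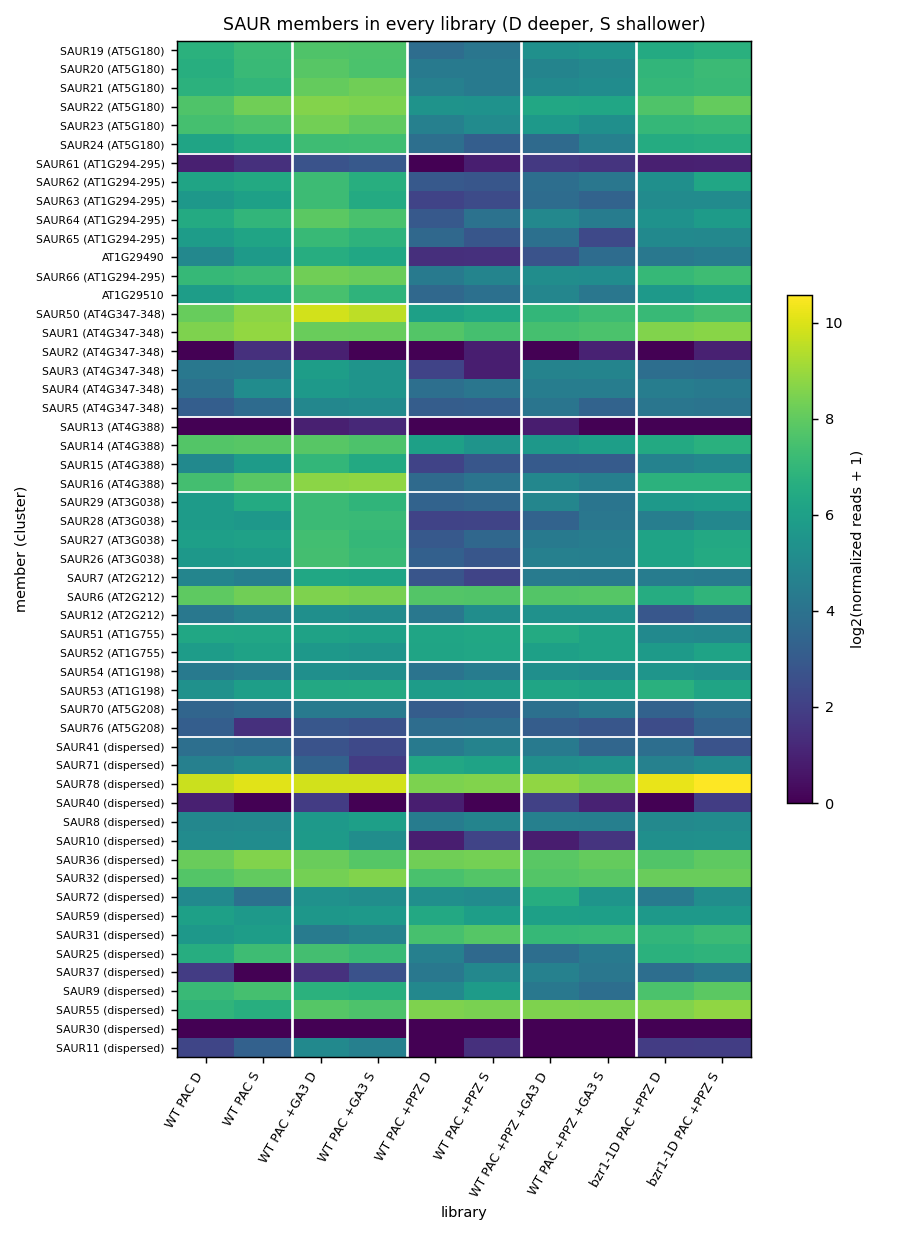
Level of each of the 54 SAUR members in each of the 10 libraries, as log2(normalized reads + 1), with members in rows by gene cluster and libraries in columns by group (D deeper, S shallower). Most clustered members are darker, that is lower, in both wild-type groups with PPZ than in the other 3 groups, while SAUR55, SAUR31 and SAUR71 are brighter there than on PAC alone.

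The summed level of the family was lowest in wild type on PPZ. The 54 members summed to 5035 and 6377 normalized reads on PAC, 8647 and 7746 with GA3 on PAC, 2782 and 2893 on PAC and PPZ, 3167 and 3060 on PPZ with GA3, and 5137 and 6071 in bzr1-1D on PAC and PPZ. The sum on PPZ was 49.7% of that on PAC alone, whereas the sum in bzr1-1D on PPZ was 98.2% of it. The libraries of the wild-type PAC group and of bzr1-1D overlapped. That total mixed sets that differed, and it does not mean that each member stood near its PAC level. In bzr1-1D the 17 dispersed members summed to 135% of their level on PAC. The clusters ran from 41.0% for SAUR6, SAUR7 and SAUR12 to 183% for the pair SAUR53 and SAUR54. In bulk samples like these, fewer cells with a transcript and less of it per cell cannot be told apart. Per kilobase of coding length and over all groups, SAUR78 had the highest level of the family at 2245 normalized reads per kb, followed by SAUR50 at 956, SAUR1 at 932, SAUR22 at 722 and SAUR32 at 710. SAUR78 is known to interact with ethylene receptors and SAUR32 to act in the apical hook. At the other end, SAUR30 had 0 reads in all libraries, and SAUR30, SAUR61, SAUR2, SAUR13 and SAUR40 had at most 30 reads over all 10 libraries and passed the read filter in no comparison. The largest count among them was that of SAUR61 with GA3 on PAC, 11 reads against 2 with mock, a ratio of 5.07 with an exact 95% interval of 1.11 to 47.1, and it was not called there by the authors (adjusted p = 0.253 by DESeq).

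PPZ lowered most of the SAUR members that passed the read filter, and on PPZ most tested members were higher in bzr1-1D than in wild type. This pair of comparisons asks what brassinosteroid synthesis and BZR1 contribute to SAUR transcripts when gibberellin synthesis is blocked. Between wild type with and without PPZ, which has no deposited table, limma-voom on the recovered reads called 27 members lower and 4 higher at an adjusted p under 0.05 among the 44 that passed the filter of a mean of 10 normalized reads. Over all genes tested in that comparison it called 12.3% lower and 11.8% higher, 24.1% in either direction. When any 1 of the 4 libraries was left out, 29 of the 31 calls held in every refit. SAUR37 fell under the read filter without either library on PPZ, and SAUR7 did so without the deeper PAC library. The median log2 change of the members with reads, without the filter, was -1.99, against 0.02 over all genes. Between bzr1-1D and wild type, both on PAC and PPZ, the authors' deposited table called 31 of 52 tested members higher and 6 lower (DESeq adjusted p under 0.05), while it called 14.5% and 15% of all tested genes higher and lower, 29.6% in either direction. Of these members, 28 were higher and 4 lower by 2-fold or more in the authors' deposited table, against 4.39% and 4.89% of all genes. By limma-voom 31 members were higher and 7 lower, of 47 that passed the filter, against 23.2% and 23.4% of all genes. The median log2 fold was 1.69 for the members and 0.02 for all tested genes in the authors' deposited table. These 2 comparisons share the wild-type libraries on PAC and PPZ, so their values stand side by side and are not independent. Root hair markers were higher on PPZ (5 of 5 by limma-voom) and lower in bzr1-1D (4 of 5 in the authors' deposited table), and seed storage and oil body markers were higher on PPZ (9 of 9 by limma-voom) and lower in bzr1-1D (4 of 9 in the authors' deposited table); their part in the SAUR differences was not tested.

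GA3 raised SAUR members on PAC, and fewer members passed the test when PPZ was present too. This pair of comparisons asks how SAUR transcripts respond to gibberellin with and without brassinosteroid synthesis. On PAC, 27 of 53 tested members were higher and 3 lower with GA3 in the authors' deposited table, against 12.9% and 14.3% of all tested genes. By 2-fold or more, 15 of them were higher and 2 lower according to the authors' deposited table, against 2.5% and 3.84% of all genes. On PAC and PPZ, 9 of 53 were higher and 3 lower in the authors' deposited table, against 5.97% and 7.37% of all genes, and by 2-fold or more 8 of these were higher and 1 lower, against 1.06% and 1.37%. Median log2 folds of the members were 0.79 without and 0.59 with PPZ in the authors' deposited tables, against 0.04 and 0.02 over all genes. By limma-voom 28 members were higher and 4 lower on PAC, of 46 that passed the filter, against 13.4% and 17.9% of all genes (31.3% in either direction). On PAC and PPZ limma-voom called 13 higher and 4 lower, of 43 that passed, against 16.3% and 18.6% of all genes (34.9% in either direction). Without the deeper library of the PAC and GA3 group, limma-voom called fewer members on PAC. On PAC and PPZ it called fewer without the deeper library of either group. In each of these refits it also called fewer of all genes, so the losses are not shown to be particular to the members. Seed storage and oil body markers were lower with GA3 on both media (8 of 9 each in the authors' deposited tables), root hair markers were higher for 1 of 5 on PAC and 0 of 5 on PPZ there, and their part in the SAUR differences was not tested.

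**Figure D2:**
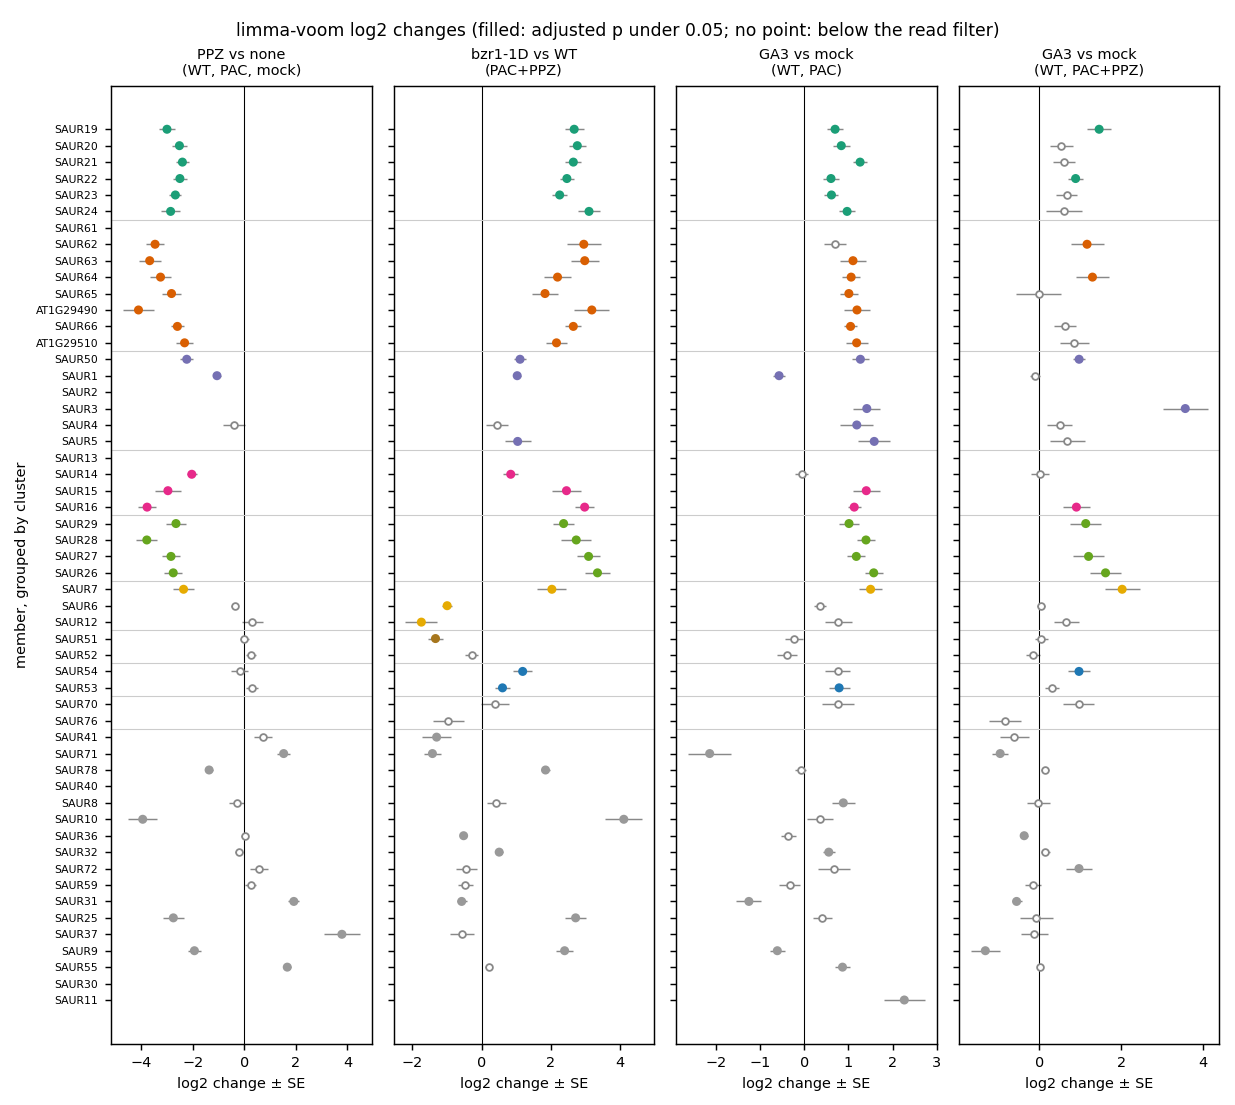
Log2 change ± SE from limma-voom on recovered reads for each SAUR member that passed the filter, in 4 comparisons, with 2 libraries per group; filled points have an adjusted p under 0.05 and colours mark clusters. The 27 members lower on PPZ lie between -4.11 and -1.07 in the left panel, and most of the same rows lie right of 0 in the panel for bzr1-1D, which shares its wild-type libraries with the left panel.

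The SAUR19 to SAUR24 cluster (AT5G18010 to AT5G18080), whose proteins are best known for hypocotyl elongation, fell on PPZ in 6 of 6 members and was higher in bzr1-1D in 6 of 6. Summed, the cluster had 761 and 1017 normalized reads on PAC, 135 and 137 on PPZ, and 767 and 894 in bzr1-1D on PAC and PPZ. The sum on PPZ was 15.3% of that on PAC, and in bzr1-1D it was 93.5%, with libraries that overlapped those on PAC. SAUR19 itself, which is known to inhibit PP2C.D phosphatases, had 106 and 146 normalized reads on PAC, 12.6 and 16.6 on PPZ and 87.2 and 104 in bzr1-1D. In SAUR19 both libraries on PPZ lay below all others, those with GA3 on PPZ included. SAUR22, the member with the highest level per kb in this cluster, had 202 and 312 on PAC, 42.0 and 41.1 on PPZ and 203 and 268 in bzr1-1D. The 6 log2 changes on PPZ ran from -3.01 ± 0.32 (SE) for SAUR19 to -2.41 ± 0.24 for SAUR21 (limma-voom, 2 libraries per group). In bzr1-1D the folds ran from 4.77 for SAUR23 to 8.67 for SAUR24 in the authors' deposited table (adjusted p = 3.83e-13 and 1.94e-20 by DESeq). SAUR24 rests on 25 reads in wild type on PPZ, and the exact 95% interval of its ratio of reads was 5.69 to 13.7, which, like the other intervals of ratios given here, covers counting error only.

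With GA3 on PAC the same cluster summed to 1565 and 1461 normalized reads, above both PAC libraries. The authors' deposited table called 5 of its 6 members higher, from 1.53-fold for SAUR23 to 2.45-fold for SAUR21 (adjusted p = 0.0284 and 1.85e-09 by DESeq). SAUR20 (1.71-fold, adjusted p = 0.00876 by DESeq), SAUR19 (1.57-fold, 0.00413) and SAUR24 (1.93-fold, 0.000297) were the others called higher in the authors' deposited table. SAUR22 was 1.45-fold in that direction in the authors' deposited table and was not called there (adjusted p = 0.142 by DESeq), while limma-voom called it at 0.60 ± 0.18 on the log2 scale (adjusted p = 0.0271). Without the deeper library with GA3, the limma-voom calls of SAUR19, SAUR20, SAUR22 and SAUR23 were lost (adjusted p = 0.0843, 0.0738, 0.13 and 0.234), and without the deeper PAC library those of SAUR19, SAUR20 and SAUR22 were lost (adjusted p = 0.108, 0.0519 and 0.242). With GA3 on PAC and PPZ the cluster summed to 238 and 245, above both mock libraries on that medium and below every library of the other 3 groups. SAUR19 was the member called higher there, by 2.82-fold in the authors' deposited table (adjusted p = 0.000173 by DESeq), with 38.3 and 44.0 normalized reads against 12.6 and 16.6. The other members had folds of 1.49 for SAUR20 to 1.86 for SAUR22 in the authors' deposited table, and limma-voom also called SAUR22 (0.88 ± 0.18 on the log2 scale, adjusted p = 0.00213). None of the 6 members passed the test of the difference between its GA3 effects on the 2 media.

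The SAUR63 cluster (SAUR61 to SAUR66, AT1G29490 and AT1G29510), the other subfamily tied to hypocotyl elongation, was low on PPZ. Its 8 members summed to 486 and 621 normalized reads on PAC, 59.7 and 74.3 on PPZ, and 347 and 434 in bzr1-1D on PPZ. The sum fell to 12.1% of the PAC level on PPZ and stood at 70.6% in bzr1-1D, where both libraries were below both PAC libraries. All members but SAUR61, which had at most 11 reads in a group, were called lower on PPZ and higher in bzr1-1D. SAUR63 had 49.2 and 64.2 normalized reads on PAC, 3.36 and 4.37 on PPZ and 32.9 and 33.7 in bzr1-1D. Its log2 change on PPZ was -3.68 ± 0.43 (limma-voom adjusted p = 0.000395). In bzr1-1D SAUR63 was 8.59-fold higher by the authors' deposited table (adjusted p = 3.26e-05 by DESeq), on 9 reads in wild type, with an exact 95% interval of 4.31 to 19.6 for the ratio of reads. AT1G29490 had 29.5 and 53.8 normalized reads on PAC, 1.68 and 1.75 on PPZ and 17.8 and 20.6 in bzr1-1D. It had the largest fall on PPZ of the members that passed the filter, at -4.11 ± 0.61, and it passed through the PAC libraries alone. AT1G29490 was 11.2-fold higher in bzr1-1D in the authors' deposited table (adjusted p = 1.57e-05 by DESeq), where 4 wild-type reads give an interval of 4.05 to 42.9. SAUR66, the highest of the cluster per kb, had 134 and 147 on PAC, 19.3 and 26.2 on PPZ and 135 and 154 in bzr1-1D, so that its libraries in bzr1-1D overlapped those on PAC.

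GA3 on PAC took the sum of the SAUR63 cluster to 1269 and 969 normalized reads. The authors' deposited table called 5 of its 8 members higher, between 1.98-fold for SAUR65 and 2.23-fold for AT1G29510 (adjusted p = 0.00377 and 0.0111 by DESeq). SAUR63 was 2.11-fold and missed the threshold in the authors' deposited table (adjusted p = 0.0704 by DESeq), while limma-voom called it (1.10 ± 0.29, adjusted p = 0.0176), a call lost without the deeper library with GA3 (adjusted p = 0.193). Without that library the limma-voom calls of SAUR65, AT1G29490 and AT1G29510 were lost as well (adjusted p = 0.0557, 0.0618 and 0.0539), and that of AT1G29490 also without the deeper PAC library (adjusted p = 0.0968). On PAC and PPZ the sum with GA3 was 141 and 118. SAUR64 was the member called higher there, by 2.33-fold in the authors' deposited table (adjusted p = 0.0247 by DESeq), with 29.7 and 20.5 normalized reads against 6.73 and 14.9. The groups did not overlap, but without either the deeper mock or the deeper GA3 library the limma-voom call for SAUR64 was lost (adjusted p = 0.232 and 0.127), and also with all 5 groups in 1 fit (adjusted p = 0.0665). Limma-voom called SAUR62 there too (1.16 ± 0.40, adjusted p = 0.0392), a call lost without the read filter (adjusted p = 0.0583), with all 5 groups in 1 fit (0.215), without the deeper or shallower mock library (0.114 and 0.134) and without the shallower GA3 library (0.189). The gene models of SAUR63 and SAUR64 overlap a gene on the opposite strand, and whether strand was used in counting is not stated, so part of their reads may belong to that gene.

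The SAUR26 to SAUR29 cluster (AT3G03820 to AT3G03850), known for growth responses to temperature, was the cluster in which every member was called in all 3 deposited comparisons. It summed to 221 and 257 normalized reads on PAC, 625 and 538 with GA3, 27.7 and 30.6 on PAC and PPZ, 79.7 and 77.7 with GA3 on that medium, and 211 and 254 in bzr1-1D. The level on PPZ was 12.2% of that on PAC, and that in bzr1-1D 97.3%, with overlapping libraries. SAUR26, the highest of the 4 per kb, had 49.2 and 55.5 normalized reads on PAC, 171 and 144 with GA3, 8.41 and 6.12 on PPZ, 23.4 and 22.5 with GA3 on PPZ and 69.4 and 87.1 in bzr1-1D. No 2 of these 5 pairs of SAUR26 libraries overlapped. In the authors' deposited tables SAUR26 was 2.99-fold higher with GA3 on PAC, 3.17-fold with GA3 on PPZ and 10.7-fold in bzr1-1D (adjusted p = 3.98e-09, 0.00192 and 1.22e-20 by DESeq). SAUR27 had 6.73 and 10.5 normalized reads on PPZ and 68.5 and 82.4 in bzr1-1D, a difference of 8.74-fold in the authors' deposited table (adjusted p = 9.35e-17 by DESeq). Across the 4 members the folds were 1.88 to 2.99 with GA3 on PAC, 2.26 to 3.91 with GA3 on PAC and PPZ and 5.36 to 10.7 in bzr1-1D in the authors' deposited tables. In wild type on PPZ these genes rest on 8 to 23 reads each, so the ratios carry wide intervals, for SAUR26 from 6.49 to 18.8 in bzr1-1D and from 1.80 to 5.83 with GA3. The limma-voom call of SAUR27 with GA3 on PPZ was lost without the deeper mock or the shallower GA3 library (adjusted p = 0.164 and 0.0798). For SAUR29 it was lost there without the deeper or shallower mock or the deeper GA3 library (adjusted p = 0.156, 0.0965 and 0.352) and with all 5 groups in 1 fit (adjusted p = 0.0743), and with GA3 on PAC without the deeper library of either group (adjusted p = 0.0658 and 0.0531).

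In the SAUR13 to SAUR16 cluster (AT4G38825 to AT4G38860), SAUR14, SAUR15 and SAUR16 fell on PPZ and were higher in bzr1-1D, and SAUR13 had 3 reads in all libraries together. SAUR15, an auxin-induced gene long used as a marker of auxin response, had 31.3 and 55.5 normalized reads on PAC, 125 and 85.3 with GA3, 3.36 and 6.12 on PPZ, 7.03 and 7.16 with GA3 on PPZ and 24.9 and 29.0 in bzr1-1D. It was 2.42-fold higher with GA3 on PAC and 5.67-fold higher in bzr1-1D in the authors' deposited tables (adjusted p = 0.0364 and 0.00141 by DESeq). In wild type on PPZ SAUR15 rests on 11 reads. SAUR16, a gene known to be induced by light in cotyledons and the highest of the cluster per kb, had 172 and 232 on PAC, 421 and 452 with GA3, 11.8 and 15.7 on PPZ and 109 and 111 in bzr1-1D. Its libraries in bzr1-1D lay above those on PPZ and below those on PAC. SAUR16 changed by -3.78 ± 0.33 on PPZ (limma-voom adjusted p = 8.76e-05), was 8.01-fold higher in bzr1-1D in the authors' deposited table (adjusted p = 3.39e-23 by DESeq), and stayed lower in bzr1-1D than on PAC without PPZ (-0.81 ± 0.18, limma-voom adjusted p = 0.00727). SAUR14 had overlapping libraries with GA3 and mock on PAC, at 228 and 195 against 213 and 224, and was also not called with GA3 on PPZ. In bzr1-1D SAUR14 was 1.79-fold higher by the authors' deposited table (adjusted p = 0.000422 by DESeq), a difference that limma-voom did not call without the shallower wild-type library (adjusted p = 0.0775).

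The SAUR1 to SAUR5 cluster (AT4G34760 to AT4G34810, which also holds SAUR50) was mixed. SAUR50, another gene known to be induced by light in cotyledons, had 277 and 432 normalized reads on PAC, 933 and 732 with GA3, 63.9 and 76.1 on PPZ, 129 and 149 with GA3 on PPZ and 138 and 168 in bzr1-1D. The libraries with GA3 on PPZ overlapped those of bzr1-1D, and no other groups overlapped. SAUR50 was 2.34-fold higher with GA3 on PAC, 1.99-fold with GA3 on PPZ and 2.18-fold in bzr1-1D in the authors' deposited tables (adjusted p = 6.83e-05, 0.0188 and 0.00207 by DESeq). SAUR1 went another way with gibberellin. It had 366 and 468 on PAC, 283 and 278 with GA3, 212 and 175 on PPZ, 174 and 188 with GA3 on PPZ and 375 and 419 in bzr1-1D. With GA3 on PAC SAUR1 was 1.49-fold lower, and in bzr1-1D it was 2.05-fold higher by the authors' deposited tables (adjusted p = 0.0296 and 4.16e-07 by DESeq). Without either library with GA3, the limma-voom call of SAUR1 on PAC was lost (adjusted p = 0.0558 and 0.0565).

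SAUR3 had the largest fold of the family with GA3 on PPZ. It had 17.9 and 19.1 normalized reads on PAC, 58.2 and 43.3 with GA3, 3.36 and 0.875 on PPZ, 25.8 and 26.6 with GA3 on PPZ and 13.3 and 12.2 in bzr1-1D. SAUR3 was 12.4-fold higher with GA3 on PPZ and 2.74-fold with GA3 on PAC in the authors' deposited tables (adjusted p = 2.24e-08 and 0.000473 by DESeq). With 5 reads in wild type on PPZ, the ratio of reads with GA3 there had an exact 95% interval of 4.94 to 38.9. The limma-voom call on PAC was lost without the deeper GA3 library (adjusted p = 0.0688). The difference of the GA3 effects of SAUR3, 2.11 ± 0.60 on the log2 scale, did not pass the threshold (limma-voom adjusted p = 0.0853). SAUR5 was 3.04-fold higher with GA3 on PAC in the authors' deposited table (adjusted p = 0.00802 by DESeq), on 16 reads in mock, with an interval of 1.83 to 6.03 and with 8.04 and 12.1 normalized reads against 29.1 and 32.5. Its limma-voom call there was lost without the deeper PAC library (adjusted p = 0.0552).

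**Figure D3:**
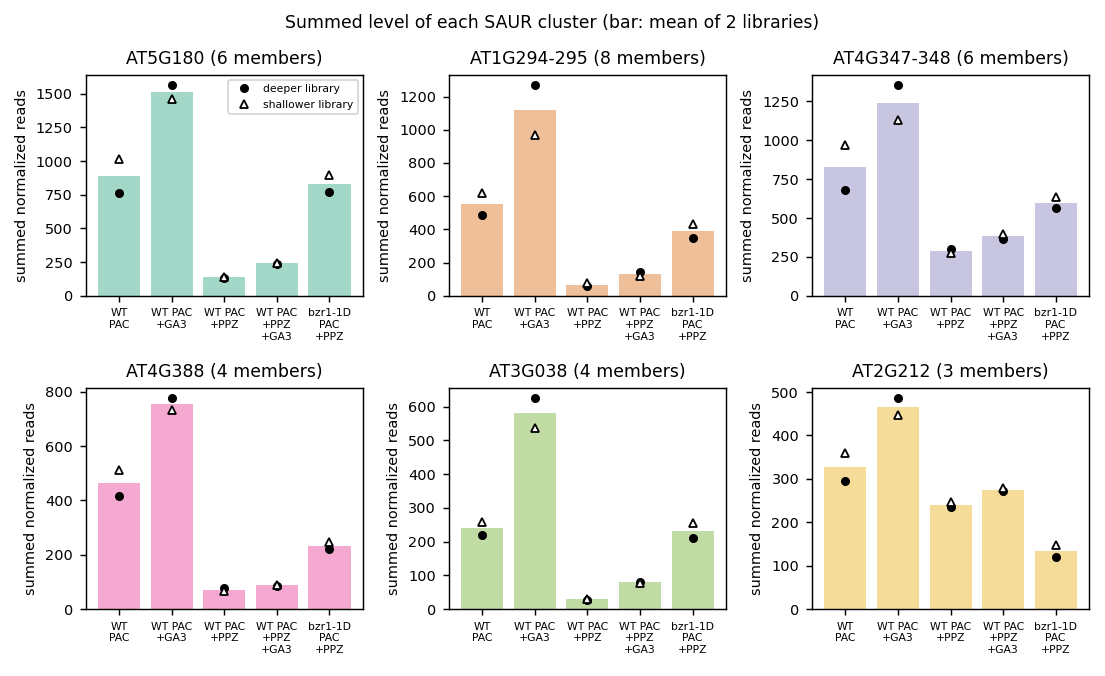
Summed normalized reads of the members of 6 SAUR clusters in the 5 groups; bars start at 0 and are means of 2 libraries, and the points are the deeper (circle) and shallower (triangle) library. AT5G180 is SAUR19 to SAUR24, AT1G294-295 the SAUR63 cluster, AT4G347-348 SAUR1 to SAUR5 with SAUR50, AT4G388 SAUR13 to SAUR16, AT3G038 SAUR26 to SAUR29 and AT2G212 SAUR6, SAUR7 and SAUR12; in the last, bzr1-1D at 120 and 148 lies below wild type on PPZ at 235 and 247, the reverse of the other 5.

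Neighbours in the AT2G21200 to AT2G21220 cluster differed in direction. SAUR7 behaved like the clusters above, with 26.8 and 22.6 normalized reads on PAC, 77.3 and 70.4 with GA3, 5.89 and 3.50 on PPZ, 20.3 and 19.4 with GA3 on PPZ and 20.5 and 19.7 in bzr1-1D. It was 2.98-fold higher with GA3 on PAC, 4.25-fold with GA3 on PPZ and 4.27-fold in bzr1-1D in the authors' deposited tables (adjusted p = 0.000192, 0.00139 and 0.000531 by DESeq). In wild type on PPZ SAUR7 rests on 11 reads. SAUR6 had 249 and 312 on PAC, 371 and 343 with GA3, 211 and 207 on PPZ, 211 and 220 with GA3 on PPZ and 93.4 and 120 in bzr1-1D. In the authors' deposited tables SAUR6 was 1.27-fold higher with GA3 on PAC and 1.97-fold lower in bzr1-1D (adjusted p = 0.0234 and 1.54e-08 by DESeq), and limma-voom did not call the former (adjusted p = 0.081). SAUR12 had 17.9 and 24.3 on PAC, 17.7 and 35.9 on PPZ and 6.23 and 8.43 in bzr1-1D, where it was 3.66-fold lower by the authors' deposited table (adjusted p = 0.00028 by DESeq). In bzr1-1D it rests on 16 reads. The gene models of SAUR6 and SAUR7 overlap on the same strand, and SAUR7 also overlaps a gene on the opposite strand, so reads in the overlaps cannot be assigned with certainty.

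Among the 3 pairs of neighbours, SAUR51 fell in bzr1-1D and its neighbour SAUR52 was not called in any deposited table. SAUR51 had 76.9 and 74.6 normalized reads on PAC, 74.0 and 77.8 on PPZ and 31.1 and 29.0 in bzr1-1D. It was 2.53-fold lower in bzr1-1D in the authors' deposited table (adjusted p = 6.75e-06 by DESeq), and its libraries on PPZ and on PAC alone overlapped (limma-voom adjusted p = 0.995). SAUR53 and SAUR54 were both higher in bzr1-1D, by 1.55-fold and 2.29-fold in the authors' deposited table (adjusted p = 0.0388 and 0.00598 by DESeq). SAUR53 had 56.3 and 57.7 on PPZ against 105 and 72.1 in bzr1-1D, and its limma-voom call was lost without either wild-type library (adjusted p = 0.0858 and 0.0641), without the deeper bzr1-1D library (0.231) and without the read filter (0.0531). SAUR70 and SAUR76 were called in no deposited table. SAUR70, the higher of that pair per kb, had 9.83 and 12.1 normalized reads on PAC, 19.1 and 18.96 with GA3, 7.57 and 8.75 on PPZ and 8.89 and 13.1 in bzr1-1D.

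Of the 17 dispersed members, 14 passed the filter in the comparison on PPZ, where limma-voom called 4 lower and 4 higher, against 12.3% and 11.8% of all genes. In bzr1-1D 5 of 16 tested were higher and 3 lower in the authors' deposited table, against 14.5% and 15% of all genes. SAUR10 had the largest fold in bzr1-1D, with 0.841 and 3.50 normalized reads in wild type on PPZ and 37.4 and 38.4 in the mutant. The difference was 17.4-fold in the authors' deposited table (adjusted p = 1.29e-11 by DESeq), and 5 reads in wild type give an interval of 7.27 to 55.8. SAUR10 was also low with GA3 on PPZ, at 0.781 and 2.05, and had 33.1 and 34.7 with mock and 52.7 and 35.2 with GA3 on PAC without PPZ, so all 4 wild-type libraries with PPZ lay below the others. SAUR78 had 853 and 1096 on PAC, 934 and 934 with GA3, 359 and 383 on PPZ, 456 and 363 with GA3 on PPZ and 1180 and 1526 in bzr1-1D. It was 3.64-fold higher in bzr1-1D in the authors' deposited table (adjusted p = 6.5e-15 by DESeq). SAUR9, which like SAUR19 is known to inhibit PP2C.D phosphatases, had 144 and 173 on PAC, 108 and 97.5 with GA3, 29.4 and 54.2 on PPZ, 18.0 and 13.3 with GA3 on PPZ and 190.3 and 238 in bzr1-1D. SAUR9 was 5.11-fold higher in bzr1-1D and 2.67-fold lower with GA3 on PPZ in the authors' deposited tables (adjusted p = 2.76e-13 and 0.00401 by DESeq). On PAC without PPZ its fold of 0.646 with GA3 stayed uncalled in the authors' deposited table (adjusted p = 0.157 by DESeq), while limma-voom called it (-0.61 ± 0.17, adjusted p = 0.0221), except without either GA3 library (adjusted p = 0.0903 and 0.133). The limma-voom call of SAUR9 with GA3 on PPZ was lost without the shallower mock library (adjusted p = 0.0804).

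SAUR11 had the largest fold of the dispersed members called higher with GA3 on PAC, at 3.57 and 8.67 normalized reads in mock and 31.8 and 23.0 with GA3. That is 4.46-fold in the authors' deposited table (adjusted p = 0.00924 by DESeq), on 9 and 52 reads, with an interval of 2.60 to 12.3. With GA3 on PAC and PPZ it had 0 reads in both libraries. A floor of 3 reads over that group would put it 21.3-fold below its level with GA3 on PAC. That value takes the 52 reads there as exact and leaves out their counting error, so it is no strict lower bound. SAUR11 passed the read filter in that comparison through the group with GA3 on PAC.

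SAUR71 and SAUR31 were called lower in every comparison with a deposited table, while in each of them more members were called higher than lower. SAUR71, of the SAUR41 subfamily, had 23.2 and 29.5 normalized reads on PAC, 9.09 and 2.71 with GA3, 79.0 and 69.1 on PPZ, 36.7 and 39.9 with GA3 on PPZ and 24.0 and 31.8 in bzr1-1D. Both libraries on PPZ were above all others, and both with GA3 on PAC were below all others. SAUR71 was 4.48-fold lower with GA3 on PAC, 1.93-fold lower with GA3 on PPZ and 2.66-fold lower in bzr1-1D in the authors' deposited tables (adjusted p = 0.000875, 0.0148 and 4.68e-05 by DESeq). On PAC it rests on 43 reads with mock and 12 with GA3. The ratio of these reads was 3.89-fold lower, with an interval of 2.01 to 8.10. On PPZ SAUR71 rose by 1.52 ± 0.26 on the log2 scale (limma-voom adjusted p = 0.00284). SAUR31 had 49.2 and 59.0 on PAC, 20.0001 and 25.7 with GA3, 181 and 220.4 on PPZ, 134 and 138 with GA3 on PPZ and 123 and 148 in bzr1-1D. It was 2.37-fold, 1.47-fold and 1.49-fold lower in the same 3 comparisons in the authors' deposited tables (adjusted p = 0.000641, 0.0305 and 0.0114 by DESeq). SAUR31 rose by 1.92 ± 0.21 on PPZ (limma-voom adjusted p = 0.000289). The limma-voom calls with GA3 on PAC were lost for SAUR71 without the shallower GA3 library (adjusted p = 0.0572) and for SAUR31 without the deeper GA3 library (adjusted p = 0.111), and that of SAUR31 in bzr1-1D without the shallower wild-type library (adjusted p = 0.0565). The gene model of SAUR31 overlaps a gene on the opposite strand.

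SAUR41, which is known for cell expansion and belongs to the same subfamily as SAUR71, was 2.36-fold lower in bzr1-1D in the authors' deposited table (adjusted p = 0.0483 by DESeq). It had 19.3 and 25.4 normalized reads in wild type on PPZ and 13.3 and 5.62 in the mutant, where it rests on 21 reads. Its limma-voom call was lost without the shallower bzr1-1D or the shallower wild-type library (adjusted p = 0.236 and 0.0575). SAUR37 and SAUR55, chosen after their values were seen, completed the 4 members higher on PPZ. SAUR37 had 2.68 and 0 normalized reads on PAC and 17.7 and 29.7 on PPZ, which on 3 and 55 reads is a ratio of 13.3 with an interval of 4.33 to 66.6. SAUR55 had 121 and 98.9 on PAC, 222 and 196 with GA3, 365 and 347 on PPZ, 366 and 359.9 with GA3 on PPZ and 382 and 448 in bzr1-1D. It rose on PPZ by 1.66 ± 0.14 (limma-voom adjusted p = 8.06e-05) and, unlike SAUR71 and SAUR31, had no call in bzr1-1D in the authors' deposited table (1.16-fold, adjusted p = 0.291 by DESeq).

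**Figure D4:**
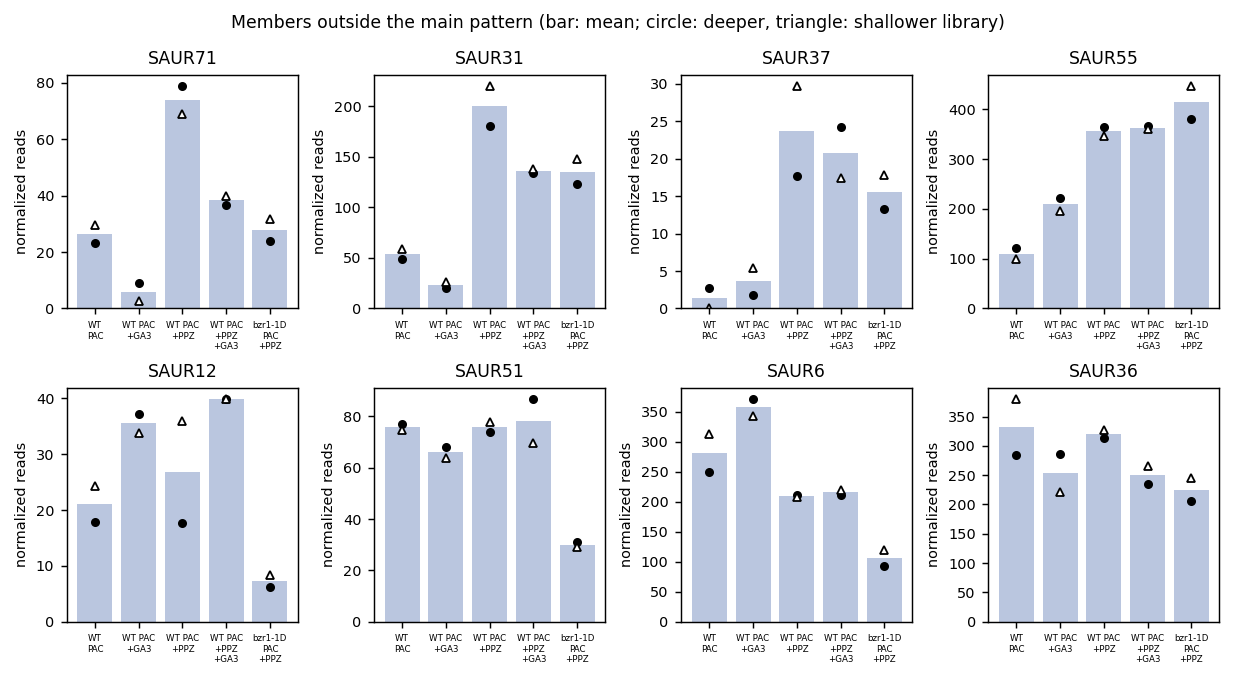
Normalized reads of 8 SAUR members, chosen after their values were seen, that departed from the family's main pattern, in the 5 groups; bars start at 0 and are means of 2 libraries, circles the deeper and triangles the shallower library. SAUR71, SAUR31, SAUR37 and SAUR55 are higher on PPZ than on PAC alone, and SAUR12, SAUR51 and SAUR6 are lowest in bzr1-1D, while SAUR36 was called in no deposited table. Limma-voom called SAUR36 lower with GA3 on PPZ and in bzr1-1D against wild type on PAC, calls that some refits lost.

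The GA3 comparison on PAC and the bzr1-1D comparison on PPZ share no library. Of the 27 members higher with GA3 on PAC, 21 were also higher in bzr1-1D in the authors' deposited tables, which is 77.8% of the former and 67.7% of the latter 31. Over all genes those shares were 49.3% and 42.8%. Among the members tested, however, 31 of 52 were higher in bzr1-1D, against 14.5% of all genes. With GA3 on PAC 27 of 53 were higher, against 12.9% of all genes. The shares thus start from unlike rates of calls and do not by themselves show closer agreement in the members. SAUR71 and SAUR31 were lower in both. SAUR1 was lower with GA3 and higher in bzr1-1D, and SAUR6 was higher with GA3 and lower in bzr1-1D. SAUR4, SAUR5, SAUR8, SAUR55 and SAUR11 were called higher with GA3 and not called in bzr1-1D in the authors' deposited tables. The 2 GA3 comparisons also share no library, and all 9 members higher with GA3 on PPZ were among the 27 higher on PAC, while over all genes 79.4% of those higher on PPZ were higher on PAC. Taken the other way, these 9 were 33.3% of the 27, against 37.4% over all genes.

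**Figure D5:**
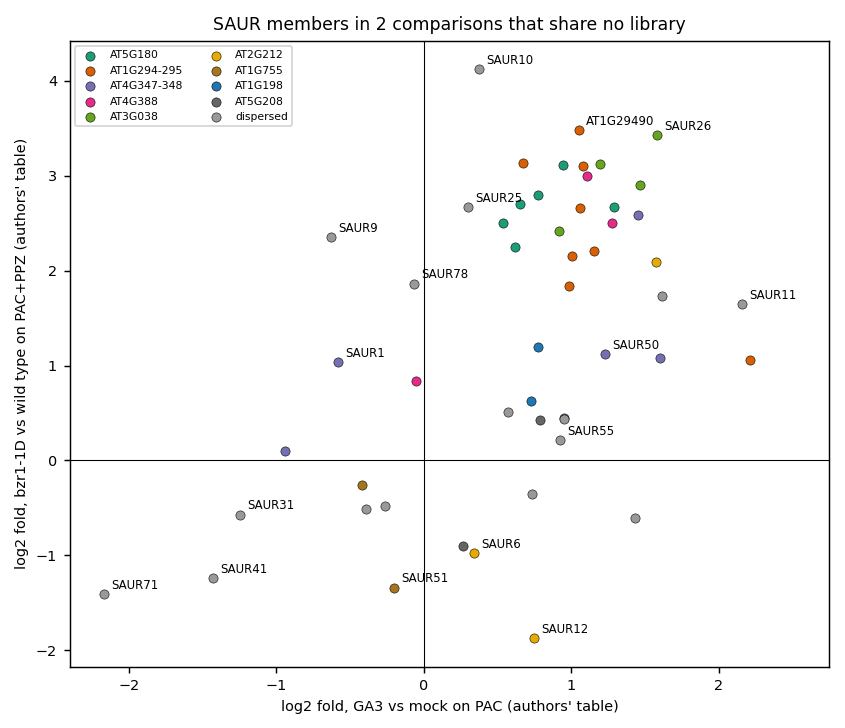
Log2 fold of each SAUR member with GA3 on PAC (x axis) and of bzr1-1D over wild type with PPZ (y axis), from the authors' deposited tables, for members with a finite fold in both; points carry no error, and colours mark clusters. Most clustered members sit in the upper right, with SAUR71 and SAUR31 in the lower left, SAUR1 and SAUR9 in the upper left and SAUR6 and SAUR12 in the lower right.

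Whether PPZ altered the GA3 effect was tested directly by the difference of the GA3 effects. At an adjusted p under 0.05 limma-voom called 1 of 47 members, SAUR55. Over all genes it called 1.71% higher and 1.62% lower at that threshold, 3.33% in either direction. An unadjusted p under 0.05 was found for 5 members, and the share of all genes at that unlike threshold was not counted. SAUR55 rose by 0.86 ± 0.17 with GA3 on PAC and changed by 0.02 ± 0.08 on PPZ, a difference of -0.87 ± 0.17 on the log2 scale (adjusted p = 0.0202). That call was lost without the deeper library with GA3 on PAC, where the difference was -0.78. It was also lost without the deeper or shallower mock library on PPZ (-0.83 and -0.90). The same held without the deeper or shallower library with GA3 on PPZ (-0.87 and -0.85). In each of these refits fewer of all genes were called too. For the remaining members, the smaller number of calls on PPZ was thus not shown to be a smaller GA3 effect there.

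The levels with PPZ were also set against those without it in GA3-treated wild type, a comparison chosen after the data were examined. Of 47 members that passed the filter, 34 were lower and 4 higher on PPZ by limma-voom, against 27.4% and 24.5% of all genes. All 27 members lower on PPZ with mock were among the 34, and the 4 higher were again SAUR71, SAUR37, SAUR31 and SAUR55. The same overlap was not counted over all genes, 51.9% of which were called here in either direction. It is therefore not shown to be particular to the members. The SAUR19 to SAUR24 cluster had log2 changes between -3.30 and -2.30 in this comparison, and SAUR16 had -4.07 ± 0.21. The calls of SAUR3 and SAUR5, both lower on PPZ, were lost without the deeper library with GA3 on PAC (adjusted p = 0.0702) and without the shallower library with GA3 on PPZ (adjusted p = 0.0567) respectively.

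A last comparison set bzr1-1D on PPZ against wild type on PAC without PPZ. Limma-voom called 5 of 46 members higher and 10 lower, against 15.3% and 15.7% of all genes, and the median log2 change of the members without the filter was -0.06. None of the 6 members of the SAUR19 to SAUR24 cluster was called; their log2 changes ran from -0.43 ± 0.15 for SAUR23 (adjusted p = 0.057) to 0.24 ± 0.17 for SAUR21. SAUR50 was lower by this comparison (-1.14 ± 0.21, adjusted p = 0.0027), as were SAUR14 (-1.20 ± 0.16, adjusted p = 0.000528), SAUR6 (-1.37 ± 0.18, adjusted p = 0.000412) and SAUR51 (-1.33 ± 0.23, adjusted p = 0.00205). SAUR55 and SAUR31 were higher, by 1.87 ± 0.17 (adjusted p = 4.67e-05) and 1.34 ± 0.21 (adjusted p = 0.00121). Without the deeper bzr1-1D library fewer members were called, and fewer of all genes were called too. Genotype and PPZ both differ in this comparison and cannot be told apart.

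Genes of the pathway that SAUR proteins act in were counted from lists, to be read against the shares over all genes in the authors' deposited tables: 12.9% higher and 14.3% lower with GA3 on PAC, 5.97% and 7.37% with GA3 on PPZ, and 14.5% and 15% in bzr1-1D. Of 9 PP2C.D phosphatases, the targets of SAUR inhibition, the authors' deposited tables called 4 higher and 1 lower with GA3 on each medium, and 1 higher and 1 lower in bzr1-1D, none of them by 2-fold. AT5G02760 was lower in all 3, at 2215 and 1331 normalized reads in mock and GA3 on PAC, 2181 and 1296 on PPZ, and 1466 in bzr1-1D in the authors' deposited tables (adjusted p = 8.07e-12, 1.89e-11 and 1.37e-07 by DESeq). AT4G33920 was higher in all 3, by 1.51-fold, 1.35-fold and 1.44-fold in the authors' deposited tables. Of plasma membrane H+-ATPases, 3 of 10 tested were higher and 3 lower with GA3 on PAC, 2 of 11 higher and 0 lower with GA3 on PPZ, and 2 of 10 higher and 4 lower in bzr1-1D in the authors' deposited tables. HA2 (AT4G30190), which encodes a main proton pump of the plasma membrane, was higher in all 3, by 1.51-fold, 1.36-fold and 1.502-fold in the authors' deposited tables (adjusted p = 4.32e-07, 0.00141 and 1.99e-06 by DESeq). HA1 was likewise higher in all 3, by 1.43-fold, 1.24-fold and 1.18-fold in the authors' deposited tables. Of 6 TIR1/AFB auxin receptors, 3, 1 and 2 were higher and 0 lower in the 3 comparisons in the authors' deposited tables. Of 5 activating auxin response factors, the authors' deposited tables called 3 higher with GA3 on PAC and 1 with GA3 on PPZ, and 1 lower in bzr1-1D. The comparisons with GA3 on PPZ and in bzr1-1D share the wild-type mock libraries on PPZ.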

How the data were processed

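The 10 hypocotyl RNA samples form 5 groups of 2 by their labels, and 3 tables were deposited, 1 per comparison. Per the submitters' processing notes, TopHat and DESeq were used; their versions, the genome build, the annotation, the counting program and its use of strand were not given in the sources used here. Per the file headers, the signal columns are group means that the authors scaled by DESeq size factors (normalized reads), the fold column is the deposited ratio of treated to control mean, and the p-value columns hold the authors' raw and adjusted DESeq results. The 5 rows without a gene name were not used; multiply aligned reads were 8.61 to 10.7% of the sum per group, reads in no feature 1.47 to 1.58%, and ambiguous ones 1.34 to 1.47%.

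The main calls were the authors' at an adjusted p under 0.05 over the whole table. Whole reads per library were recovered from the means, which are sums of whole multiples of a step per library, for 99.6 to 99.9% of genes with a mean above 0 in a group; genes left unresolved had means of at least 10046. The recovery and the fit below were tested on simulated data. Deposited size factors were 0.983 to 0.992 of those recomputed by median of ratios over all libraries, so library values differ slightly from the deposited means. Log2 changes ± SE came from limma-voom (limma 3.58.1, R 4.3.3) on the recovered reads of the groups compared, for genes averaging 10 normalized reads or more, with Benjamini-Hochberg adjustment over all genes tested. The filter keeps members through the group where they are high, so counts are given of those that passed. For ratios on at most 30 reads on a side exact 95% binomial intervals were computed, and they are printed for some of the members named. Symbols and coding lengths came from RefSeq, assembly TAIR10.1 (32709 of 33518 identifiers and all 54 members matched); since the files name no build, no coordinates or sequences are given, and levels per kb assume that annotation.

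In each comparison the 6 members called higher and the 6 called lower with the largest log2 change were named, with the highest member per kb in each cluster and all of SAUR19 to SAUR24; further members were named after their values were seen. The comparison of PPZ with no PPZ under GA3 was added after the data were examined. The members and gene lists were chosen with earlier results of these data known. Alternatives were another threshold, a fold minimum, 2 other scalings, no read filter, all 5 groups in 1 fit and each library left out.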

Additional observations from a re-analysis of the deposited data

Results flagged for a closer look

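SAUR55 drew attention because its GA3 effect differed between the media by the test of that difference, with a log2 difference of -0.87 ± 0.17 (limma-voom adjusted p = 0.0202, 2 libraries per group). It was 1 of 47 members tested, against 3.33% of all genes. Its call was lost in several refits with 1 library left out, in which fewer of all genes were called too. Its level was 121 and 98.9 normalized reads with mock and 222 and 196 with GA3 on PAC, and 365 and 347 against 366 and 359.9 on PAC and PPZ.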

How the results depend on the processing

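No paired analysis was possible because the recovered libraries cannot be matched to the labelled samples, although the labels mark 1 sample of every group as a repeat. No called log2 change turned direction under any alternative. In the authors' table, 17 of 30 members called with GA3 on PAC were at least 2-fold changed, and 5 of 12 called with GA3 on PAC and PPZ had an adjusted p under 0.01. With 1 library left out at a time, the number of members called by limma-voom was 15 to 36 with GA3 on PAC, 10 to 18 with GA3 on PAC and PPZ, 35 to 36 in bzr1-1D, 31 to 34 on PPZ with mock, 36 to 38 on PPZ with GA3, 9 to 18 in bzr1-1D against PAC and 0 to 2 for the difference of the GA3 effects; in such a refit the lone library of a group is assumed to vary like the others. Over the members' log2 changes these refits ended 86 calls, added 28 and left 1336 on their side of the threshold. In 10 further cases a called member fell under the read filter in a refit and gave no value: SAUR37 and SAUR7 on PPZ with mock, SAUR11 and SAUR37 on PPZ with GA3, SAUR11 with GA3 on PAC, and AT1G29490 in bzr1-1D without either mutant library. Upper-quartile scaling ended 1 call and added 3, scaling by total resolved reads ended 1 and added 8, no filter ended 4 and added 2, and all 5 groups in 1 fit ended 6 and added 6. The number of calls over all genes also changed with the library left out, so these changes are not shown to be particular to the members. Members with few reads in wild type on PPZ are limited by depth.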
